A study of Mus musculus with 49 samples.

Results

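Potassium channel genes were taken from the array table as the probe sets whose 1 listed gene symbol starts with Kcn, the stem shared by the pore-forming subunits of potassium channels and many of their auxiliary subunits. The rule found 87 probe sets of 60 genes, out of 22626 probe sets and 11807 named genes, and a gene with several probe sets was read through its brightest one over all arrays. The 60 genes fell into 18 voltage-gated (Kv) subunits, 13 inward rectifiers (Kir), 8 background channels with a pair of pore domains (K2P), 6 calcium- or sodium-activated channels and 15 auxiliary subunits. RefSeq lists 94 protein-coding Kcn genes in the mouse, and the other 34 were not analysed here.

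The data came from female mice of 6.1 months, from which granule cells of the dentate gyrus (DG) and pyramidal cells of fields CA1 and CA3 had been cut out by laser and profiled on HT-MG-430A arrays. The rTg4510 mice carried a responder transgene for mutant human tau together with the tetracycline transactivator tTA, the tTA mice carried the transactivator alone, and their double negative (DN) littermates carried neither. The transactivator was driven by the CaMKIIα promoter, which is active in excitatory neurons of the forebrain. There were 5 rTg4510, 5 tTA and 6 DN arrays of CA1, 6, 5 and 5 of CA3 and 6, 5 and 6 of DG, which makes 49 arrays from 17 mice, each mouse giving up to 3.

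Potassium channels let potassium leave the cell and so set the resting potential, end action potentials and limit firing. Kv channels open on depolarization, Kir channels pass current best near rest (some are opened by G proteins or by a fall in ATP), K2P channels carry leak current, and the calcium-activated SK and BK channels couple calcium entry to the after-hyperpolarization. Auxiliary subunits bind the pore-forming ones and change their traffic or gating: Kvβ subunits (Kcnab) partner Kv1 channels, KChIP proteins (Kcnip) partner the Kv4 channels of dendrites, and Kcnmb subunits partner BK. In the hippocampus each kind of principal neuron has its own set of these channels, and astrocytes clear potassium through Kir4.1.

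Levels are log2 values, on which a difference of 1 is a doubling, and every difference is on that scale. A gene was called higher or lower where limma's p, adjusted over all 22626 probe sets, was below 0.05, and it was termed dim in a group where its mean was below 5.04, the median over probe sets. Levels far below it lie near the background of the arrays, so a difference from a dim group may be understated. Of the 60 genes, 32 were dim in all 9 groups of subfield and genotype, 7 in some and 21 in none. The captures held other cells beside the principal neurons, so fewer cells of a type cannot be told apart from less RNA per cell. Marker lists of glia, vessels and interneurons moved with genotype, and levels of some lists stand beside many of the results.

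Promoters are shown for 3 genes on which the results turn and which have a single listed start: Kcnh7, which marked CA1 and was lower there in transgenic mice, Kcnj3, whose difference between rTg4510 and tTA mice varied between subfields, and Kcnc4, which marked DG. Each run holds the 250 bases before the start, 5′ to 3′ on the strand of the gene, from RefSeq on build GRCm38.p6, at chr2:63184288-63184537 (Kcnh7, minus strand), chr2:55435720-55435969 (Kcnj3, plus strand) and chr3:107458899-107459148 (Kcnc4, minus strand). Capitals mark the GC box GGGCGG on either strand.
Kcnh7: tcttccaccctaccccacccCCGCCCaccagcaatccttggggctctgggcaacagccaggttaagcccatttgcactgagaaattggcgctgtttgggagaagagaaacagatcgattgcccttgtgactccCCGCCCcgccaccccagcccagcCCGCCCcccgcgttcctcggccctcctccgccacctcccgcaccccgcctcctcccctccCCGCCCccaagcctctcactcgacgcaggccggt
Kcnj3: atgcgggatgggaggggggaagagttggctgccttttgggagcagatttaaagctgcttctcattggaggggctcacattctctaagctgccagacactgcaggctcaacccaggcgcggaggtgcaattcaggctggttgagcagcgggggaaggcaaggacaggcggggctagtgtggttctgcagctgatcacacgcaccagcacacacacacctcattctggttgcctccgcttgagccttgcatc
Kcnc4: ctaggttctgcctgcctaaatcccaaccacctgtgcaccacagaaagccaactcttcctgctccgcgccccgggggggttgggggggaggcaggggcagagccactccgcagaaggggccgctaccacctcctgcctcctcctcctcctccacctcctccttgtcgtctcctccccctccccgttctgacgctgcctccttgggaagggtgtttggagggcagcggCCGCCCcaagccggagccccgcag
Kcnh7 held 4 GC boxes in these bases, Kcnc4 1 and Kcnj3 none, and their GC content was 67.6%, 68% and 58.4%. The GC box stood in 32.7% of all 32851 listed promoter windows cut to the same length, and in 30 of the 67 windows (44.8%) of the 49 Kcn genes that matched. The E-box CACGTG (6.02% of all windows), the cyclic AMP response element TGACGTCA (1.55%), the TATA box TATAAA (12.4%) and the EGR site GCGTGGGCG (0.536%), searched on both strands, were in none of the 3 windows. A match describes letters and not a bound site.

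In DN mice the 3 subfields differed in their potassium channel genes. Between CA1 and CA3, 8 of the 60 genes were higher and 7 lower in CA1, so that 25% were called against 12.9% of all probe sets. Between CA1 and DG, 9 were higher and 11 lower in CA1 (33.3% against 17.5%), and between CA3 and DG, 7 were higher and 13 lower in CA3 (33.3% against 21.7%). Of the 18 Kv genes 7, 8 and 8 were called in these comparisons, of the 13 Kir genes 2, 1 and 4, of the 8 K2P genes 2, 2 and 3, of the 6 calcium- or sodium-activated genes 1, 3 and 1, and of the 15 auxiliary genes 3, 6 and 4. The median difference over the 60 genes was −0.01, −0.05 and −0.02, beside −0.02, −0.01 and 0.01 over all probe sets.

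Kcnh7, which encodes the ERG-type channel Kv11.3, was the CA1 gene among them. Its level in DN mice was 7.36 to 7.56 (median 7.43) in CA1, against 3.43, 3.02, 3.33, 3.28 and 3.48 in CA3 and 3.94 to 4.28 in DG, where it was dim. It was higher in CA1 than in CA3 (4.13, SE 0.23, adjusted p = 1e-18) and than in DG (3.30, SE 0.21, adjusted p = 1.28e-16), with no overlap. Kcnc4, which encodes the A-type channel Kv3.4, was the DG gene. It stood at 5.08 to 7.21 (median 6.33) in CA1 and 5.13, 5.42, 5.68, 5.63 and 6.14 in CA3, against 9.61 to 10.04 (median 9.80) in DG. Every DG array was above every CA1 array (−3.61, SE 0.23, adjusted p = 3.81e-17) and every CA3 array (−4.21, SE 0.24, adjusted p = 1.14e-18). A dimmer probe set of Kcnc4 had means of 3.64, 3.77 and 3.96 in CA1, CA3 and DG. It was called lower in CA1 than in DG (−0.32, adjusted p = 0.00149) but not in CA3 (−0.20, adjusted p = 0.0828).

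Kcnq5, a subunit of the M-current that restrains repetitive firing, was lowest in DG. It stood at 6.15 to 6.92 in CA1 and 7.26, 7.2, 7.25, 7.42 and 6.94 in CA3, against 4.40 to 4.76 (median 4.58) in DG, where it was dim. CA1 was below CA3 (−0.67, adjusted p = 0.00372), and DG below both CA1 (1.97, adjusted p = 2.04e-13, CA1 minus DG) and CA3 (2.64, adjusted p = 7.59e-17, CA3 minus DG), and the subfields did not overlap. Among K2P genes the mechanosensitive channels TREK-1 and TRAAK led in different subfields. Kcnk2 (TREK-1) stood at 8.36 to 8.98 in CA1, against 6.59, 6.83, 6.93, 6.69 and 6.79 in CA3 and 7.04 to 7.66 in DG, and was higher in CA1 than in CA3 (1.82, adjusted p = 9.38e-10) and DG (1.27, adjusted p = 8.21e-07). Kcnk4 (TRAAK) stood at 3.21 to 3.39 in CA1 and 5.09, 4.68, 4.74, 4.91 and 4.08 in CA3, against 3.10 to 3.35 in DG, dim in each. Its CA3 level was above that of CA1 (−1.39, adjusted p = 7.01e-11, CA1 minus CA3) and DG (1.5, adjusted p = 4.3e-12). Kcnk1 (TWIK-1) was lower in CA1 (−1.01, adjusted p = 3.39e-13) and in CA3 (−0.83, adjusted p = 3.11e-10) than in DG.

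**Figure D1:**
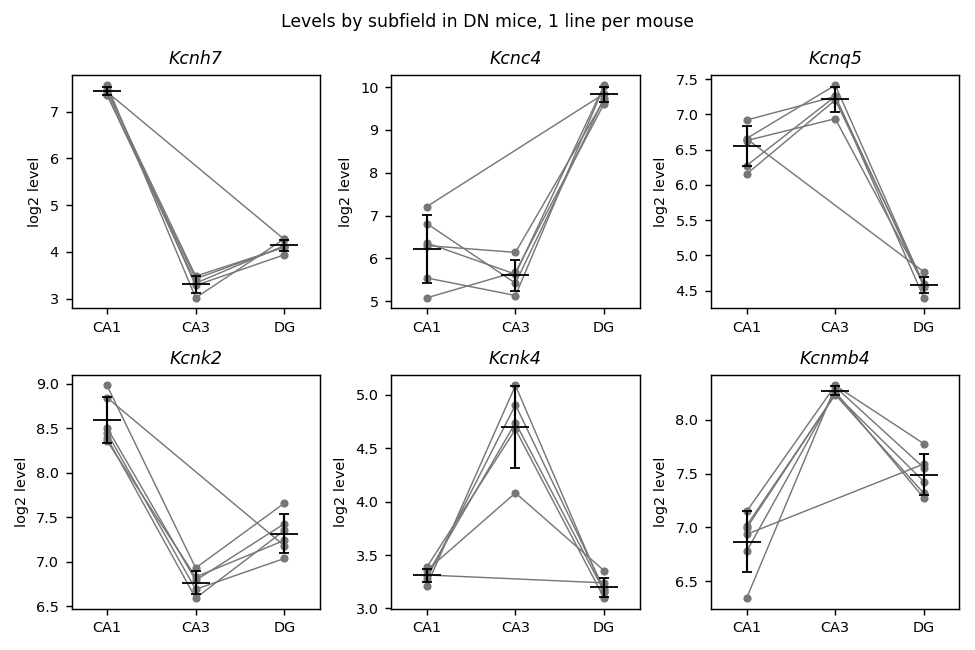
Log2 level (y axis) of 6 Kcn genes in CA1, CA3 and DG of DN mice, 1 line per mouse, with the mean and SD (n = 6, 5 and 6). Kcnh7 stood at 7.36 to 7.56 in CA1, above all CA3 and DG arrays, and Kcnc4 at 9.61 to 10.04 in DG, above all CA1 and CA3 arrays.

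Of the 4 measured genes of G protein-gated Kir (GIRK) channels, Kcnj9 and Kcnj3 were lower in CA3 than in the other subfields. Kcnj9 (GIRK3) was higher in CA1 than in CA3 (1.29, adjusted p = 7.44e-05) and lower in CA3 than in DG (−1.70, adjusted p = 2.52e-07), and so was Kcnj3 (GIRK1; 0.88, adjusted p = 1.33e-05, and −1.03, adjusted p = 3.82e-07). Kcnj6 (GIRK2) missed the threshold (CA1 minus CA3 0.64, adjusted p = 0.0997, and CA3 minus DG −0.61, adjusted p = 0.0914), and Kcnj5 (GIRK4) was dim in all groups and called in no comparison. Kcnn2 (SK2) was higher in CA1 than in CA3 (0.98, adjusted p = 1.61e-08) and DG (1.23, adjusted p = 6.6e-12). Among auxiliary genes, Kcnab1 (Kvβ1) was higher in CA1 than in CA3 (1.18, adjusted p = 6.27e-05) and DG (1.69, adjusted p = 1.2e-08), and Kcnab2 (Kvβ2) was higher in CA1 than in DG (0.98, adjusted p = 1.2e-05). Kcnmb4, the β subunit of neuronal BK channels, was the CA3 gene of this group. It stood at 6.34 to 7.15 in CA1 and 8.26, 8.24, 8.32, 8.31 and 8.23 in CA3, against 7.27 to 7.78 in DG, lower in CA1 than in CA3 (−1.41, adjusted p = 4.89e-10) and higher in CA3 than in DG (0.79, adjusted p = 6.08e-05). Kcnip3, a KChIP also known as calsenilin, was lower in CA1 (−1.12, adjusted p = 7.53e-06) and CA3 (−1.02, adjusted p = 7.27e-05) than in DG.

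Of the Kv1 genes, Kcna1 (Kv1.1), which opens at low thresholds, was lower in CA1 than in CA3 (−1.03, adjusted p = 0.000344), and Kcna2 (Kv1.2) was higher in CA3 than in DG (0.95, adjusted p = 0.00503). Kcna3 was lower in CA1 (−0.85, adjusted p = 0.00305) and CA3 (−0.87, adjusted p = 0.0034) than in DG, and Kcna4 (Kv1.4), which inactivates fast, was lower in CA3 than in DG (−1.14, adjusted p = 0.000305). Kcnh1 (EAG1) was lower in CA1 than in CA3 (−0.82, adjusted p = 0.002), as were Kcnc1 (Kv3.1; −0.79, adjusted p = 0.00862) and Kcnd3 (Kv4.3; −0.69, adjusted p = 0.0155). The last 2 calls were lost without DN mouse4797 and, for Kcnd3, also without DN mouse4866 (adjusted p up to 0.0684). The Kir2 genes Kcnj2 and Kcnj4 stayed dim in all groups. Kcnj2 (Kir2.1) was lower in CA1 (−0.69, adjusted p = 0.00805) and CA3 (−0.80, adjusted p = 0.00266) than in DG, and Kcnj4 (Kir2.3) was lower in CA3 than in DG (−0.46, adjusted p = 0.0168), a call lost without DN mouse4797 and mouse4883 (adjusted p up to 0.107).

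The comparison of rTg4510 with tTA mice asks what mutant tau adds, since both carry the transactivator. In CA1, 4 of the 60 genes were higher and 5 lower in rTg4510 mice, 15% called against 10.6% of all probe sets. Auxiliary genes held 5 of these 9 calls (1 of 15 higher, 4 lower), Kir genes 2 of 13, Kv genes 1 of 18, calcium- or sodium-activated genes 1 of 6, and K2P genes 0 of 8. All K2P genes but Kcnk1 and Kcnk2 were dim in all 9 groups, as were the auxiliary genes Kcne1, Kcne1l, Kcne2, Kcne3, Kcne4 and Kcnmb1. The median difference was −0.06 over the 60 genes and −0.03 over all probe sets. In 4 of the 60 genes the groups did not overlap, against 6.32% of all probe sets.

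The 5 genes that fell in CA1 were a Kv channel and auxiliary subunits of Kv1 and Kv4 channels. Kcnab1 stood at 7.11, 7.18, 6.47, 5.33 and 6.10 in rTg4510 mice, against 7.5, 7.83, 7.40, 8.02 and 7.76 in tTA mice. The groups did not overlap (−1.26, SE 0.28, adjusted p = 0.00836), and the DN mice, at 8.03 to 8.75, were higher still. Kcnh7 stood at 5.83, 5.14, 4.76, 3.74 and 4.90 in rTg4510 mice, where its mean was dim, against 5.47, 6.45, 5.72, 6.67 and 6.17 in tTA mice (−1.22, SE 0.29, adjusted p = 0.0131). Only the highest rTg4510 mouse was within the tTA range. Kcnip4 (KChIP4) stood at 7.40, 7.28, 7.03, 7.0 and 6.58 in rTg4510 mice, against 7.62, 7.30, 7.91, 8.02 and 7.94 in tTA mice (−0.70, SE 0.15, adjusted p = 0.00867), and 1 rTg4510 mouse was within the tTA range. Kcnip2 (KChIP2) stood at 5.77, 6.08, 6.39, 4.67 and 5.21 in rTg4510 mice, against 6.25, 6.97, 6.87, 6.24 and 6.59 in tTA mice (−0.96, adjusted p = 0.0271). Kcnab2 averaged 8.63 ± 0.22 in rTg4510 and 9.17 ± 0.27 in tTA mice (SD, n = 5 each; difference −0.54, adjusted p = 0.0377), and for both genes the groups overlapped.

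The 4 genes that rose in CA1 were a pair of Kir channels known from non-neuronal cells, an SK channel and a BK subunit. Kcnj8, the Kir6.1 subunit of the ATP-sensitive channels of pericytes and vascular smooth muscle, stood at 6.21, 5.73, 6.29, 5.79 and 6.70 in rTg4510 mice, against 5.54, 5.39, 4.32, 5.43 and 5.10 in tTA mice. The groups did not overlap (0.99, SE 0.23, adjusted p = 0.0119), though the DN range of 5.05 to 5.88 reached into that of rTg4510 mice. Kcnj10, the astrocyte channel Kir4.1, stood at 9.02, 7.91, 8.71, 8.69 and 9.11 in rTg4510 mice, against 7.78, 7.67, 8.21, 8.37 and 8.08 in tTA mice, with overlap (0.67, SE 0.19, adjusted p = 0.0366), and at 6.83 to 7.31 in DN mice. Kcnn3 (SK3) stood at 5.75, 6.29, 6.59, 5.42 and 5.55 in rTg4510 mice, against 5.34, 4.97, 5.21, 5.06 and 5.00 in tTA mice, with no overlap (0.80, SE 0.20, adjusted p = 0.0148). The DN range of Kcnn3 was 5.59 to 6.21, within that of rTg4510 mice, so the tTA mice were the low group. Kcnmb2, a BK β subunit, stood at 5.23, 5.06, 5.12, 5.53 and 5.84 in rTg4510 mice, against 5.43, 4.50, 4.67, 4.08 and 4.86 in tTA mice, where it was dim (0.65, adjusted p = 0.0498).

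**Figure D2:**
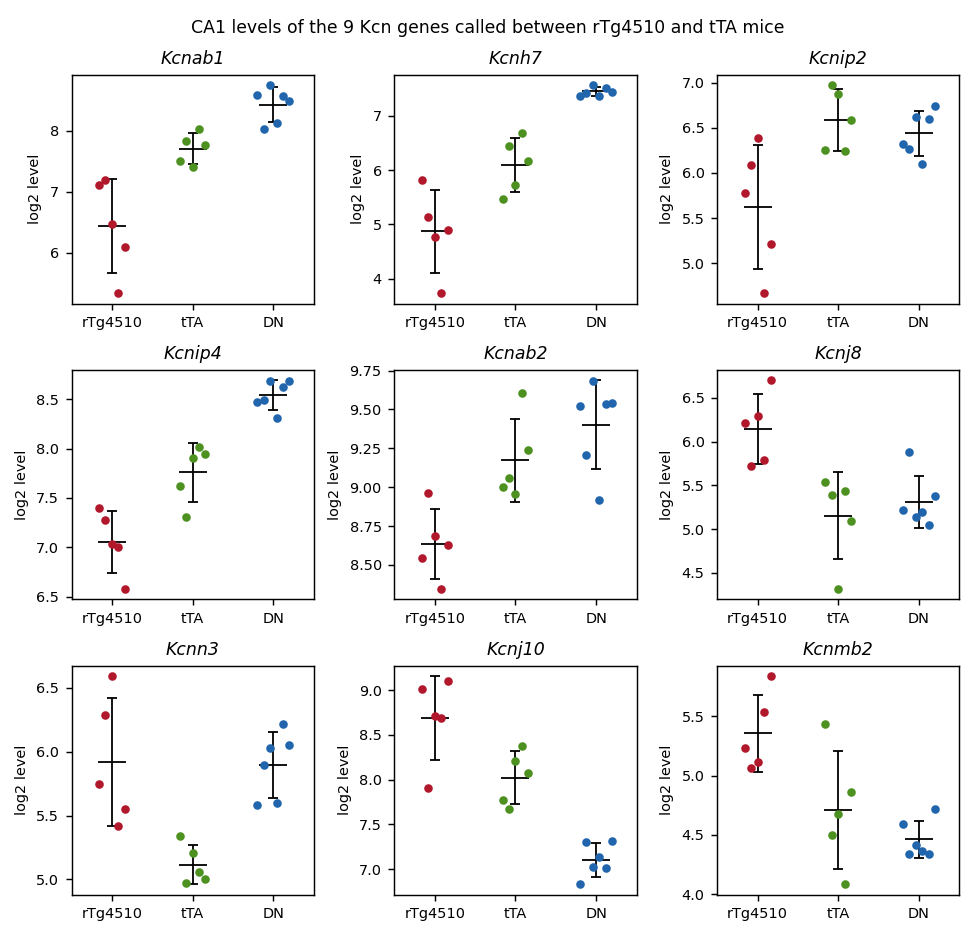
Log2 level (y axis) in CA1 of the 9 Kcn genes called between rTg4510 and tTA mice, 1 point per mouse, with the mean and SD (5 rTg4510, 5 tTA and 6 DN mice). Kcnab1, Kcnh7 and Kcnip4 had their lowest mean in rTg4510 and their highest in DN mice, whereas Kcnn3 had its lowest in tTA mice.

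Other probe sets of these genes gave called differences for Kcnab1 (−1.07, adjusted p = 0.0167) and Kcnab2 (−0.80, adjusted p = 0.000733) but not for Kcnip4 (−0.57, adjusted p = 0.144) or Kcnmb2 (0.56, adjusted p = 0.0767). A dimmer probe set of Kcnip1 was higher in rTg4510 mice (1.36, adjusted p = 9.02e-05), and the brightest one differed in the same direction without passing the test (0.51, adjusted p = 0.232). Kcnab1, Kcnh7, Kcnip4, Kcnj8 and Kcnn3 kept their calls without each mouse in turn. The call of Kcnip2 was lost without any 1 of mouse4580, mouse4592, mouse4653 and mouse4666, that of Kcnab2 without mouse4535, mouse4580, mouse4626, mouse4637, mouse4653 and mouse4666, that of Kcnj10 without mouse4535, mouse4570, mouse4580, mouse4600, mouse4637, mouse4653 and mouse4666, and that of Kcnmb2 without mouse4535, mouse4580, mouse4592, mouse4626, mouse4637, mouse4653 and mouse4666 (adjusted p up to 0.0736, 0.094, 0.0988 and 0.128). Without tTA mouse4580 or rTg4510 mouse4653 or mouse4666, 5 genes were called.

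Cell markers moved in the same arrays. Of the astrocyte markers 10 of 12 were higher in rTg4510 mice, with a mean level of 8.65 to 9.33 against 7.59 to 8.20 in tTA mice. Of the microglial markers 10 of 16 were higher (6.26 to 7.14 against 5.29 to 5.74 in tTA mice), and of the endothelial and mural markers 6 of 13 (5.46 to 6.18 against 5.18 to 5.47 in tTA mice). Of the interneuron markers 10 of 17 were higher and 1 lower (6.84 to 7.65 in rTg4510 against 6.39 to 6.89 in tTA mice), and of the oligodendrocyte markers 5 of 11 were higher (6.95 to 7.71 in rTg4510 against 6.27 to 7.16 in tTA mice). Among CA1 pyramidal markers Wfs1, Pou3f1 and Lefty1 were lower and Dcn higher, and the mean of these 4 ran over 6.24 to 7.29 in rTg4510 and 7.42 to 8.09 in tTA mice. The 3′ minus 5′ log2 level of the Actb control probe sets, which follows RNA length, was −0.48 ± 0.07 in rTg4510 and −0.70 ± 0.16 in tTA mice. With it as a covariate 1 of the 60 genes was called, Kcnn3, and in a fit without the DN arrays 1 was called, Kcnab1. The share of all probe sets called was not counted for either, so the drop cannot be read as particular to Kcn genes. The differences kept their sign in both fits. With the covariate they were −1.04 for Kcnab1 (adjusted p = 0.0603), −1.21 for Kcnh7 (adjusted p = 0.0513) and 0.80 for Kcnj8 (adjusted p = 0.0833), and without the DN arrays they were as before. The part of these markers and of RNA length in the Kcn differences was not tested.

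In CA3, limma called 0 of the 60 genes between rTg4510 and tTA mice, against 1.13% of all probe sets. At an unadjusted p below 0.05 there were 3, against 14.8% of all probe sets, and the methods' least significant difference test, adjusted likewise, also called 0. In DG 1 gene was called, Kcna4, against 0.782% of all probe sets. Kcna4 stood at 4.84 to 5.62 (median 5.40) in rTg4510 mice, against 4.0, 3.68, 4.89, 4.67 and 4.11 in tTA mice, where it was dim (1.04, SE 0.23, adjusted p = 0.044). The groups overlapped, and the DN range was 4.94 to 6.03, so here too the tTA mice were the low group. This call was lost without any 1 of mouse4535, mouse4570, mouse4580, mouse4600, mouse4621, mouse4637, mouse4653 and mouse4666 (adjusted p up to 0.108). In DG a dimmer probe set of Kcnab1 was higher in rTg4510 mice (0.76, adjusted p = 0.0469).

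A test over all 49 arrays asked if that difference itself varied between subfields. It differed between CA1 and CA3 for 4 of the 60 genes (6.67% against 3.88% of all probe sets) and between CA1 and DG for 8 (13.3% against 5.45%). Kcnab1, Kcnh7, Kcnip4 and Kcnj3 were in both sets, each with a more negative difference in CA1. For Kcnab1 the CA1 difference minus that of CA3 was −1.42, SE 0.32, adjusted p = 0.00709, and minus that of DG −1.72, SE 0.32, adjusted p = 0.00066. Its levels averaged 6.92 ± 0.41 in rTg4510 and 6.79 ± 0.18 in tTA mice in CA3 (n = 6 and 5), and 6.86 ± 0.52 in rTg4510 and 6.43 ± 0.38 in tTA mice in DG. Kcnab1 was higher in CA1 than in DG in 2 of 5 rTg4510 mice (−0.44, adjusted p = 0.204), 5 of 5 tTA mice (1.28, adjusted p = 4.28e-05) and 6 of 6 DN mice.

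For Kcnh7 the CA1 difference minus that of CA3 was −1.39, adjusted p = 0.00954, and minus that of DG −1.06, adjusted p = 0.0448. Its mean in CA3 and DG was dim in all genotypes, so a difference between genotypes may be understated there. The gap to the CA1 difference may then be overstated, and the test cannot tell this from a response particular to CA1. The next values, each an excess over a dim CA3 level, may be understated. The excess of CA1 over CA3 was 1.47, adjusted p = 4.21e-06 in rTg4510 mice and 2.86, adjusted p = 8.78e-13 in tTA mice, beside 4.13 in DN mice. For Kcnip4 the values were −1.11, adjusted p = 0.00335 against CA3 and −1.06, adjusted p = 0.00277 against DG. For Kcnj3 they were −0.90, adjusted p = 0.0106 and −0.98, adjusted p = 0.00318, though the difference within CA1 missed the threshold (−0.51, adjusted p = 0.0906). The mean of Kcnj3 was 6.47 ± 0.41 in rTg4510 and 6.97 ± 0.22 in tTA mice for CA1, 6.64 ± 0.23 in rTg4510 and 6.24 ± 0.17 in tTA mice in CA3, and 7.13 ± 0.25 in rTg4510 and 6.65 ± 0.27 in tTA mice in DG.

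Against DG alone, the CA1 difference was higher for Kcnj8 (1.54, adjusted p = 0.00403), Kcnn3 (0.80, adjusted p = 0.0298) and Kcnmb2 (0.76, adjusted p = 0.0457) and lower for Kcna4 (−1.11, adjusted p = 0.0491). Kcnj8 averaged 5.31 ± 0.41 in rTg4510 and 5.88 ± 0.47 in tTA mice in DG, the opposite order to CA1. This DG difference was not called. The DG levels of Kcnj8 ran over 4.80 to 6.03 in rTg4510, 5.14 to 6.39 in tTA and 4.86 to 5.88 in DN mice. Here the tTA mice were the high group. Without the mouse as a block, 4 of the 8 calls against DG remained, those of Kcnab1, Kcnip4, Kcnj3 and Kcnj8. Of calls lost without a single mouse, that of Kcna4 went without mouse4570, mouse4621, mouse4637, mouse4653 and mouse4666, that of Kcnh7 against DG without mouse4549, mouse4580, mouse4600, mouse4626, mouse4637, mouse4653 and mouse4666, that of Kcnmb2 without mouse4535, mouse4580, mouse4592, mouse4600, mouse4621, mouse4626, mouse4637, mouse4653 and mouse4666, that of Kcnn3 without mouse4549, mouse4592, mouse4600 and mouse4637, and that of Kcnj3 against CA3 without mouse4653 (adjusted p up to 0.201, for Kcna4). Against DG 4 genes were called without tTA mouse4637 and 5 without rTg4510 mouse4653 or mouse4666, and against CA3 7 were called without rTg4510 mouse4549.

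**Figure D3:**
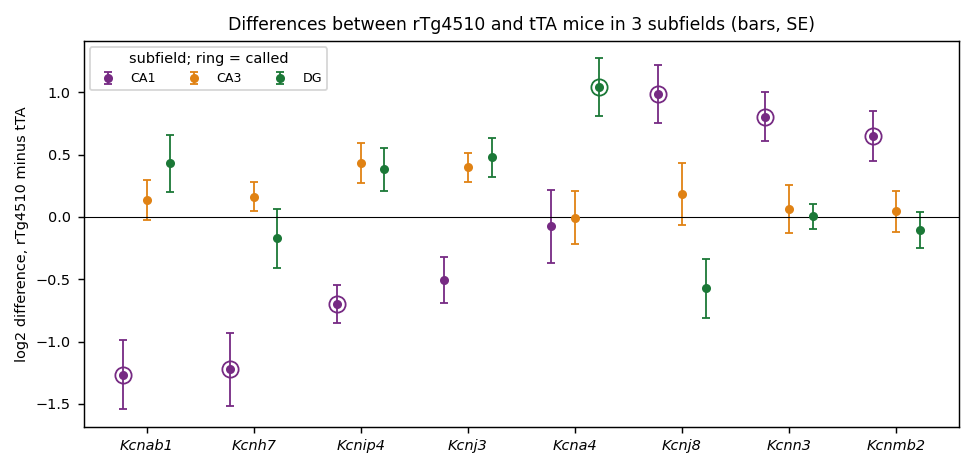
Log2 difference between rTg4510 and tTA mice (y axis, bars SE) in CA1, CA3 and DG for the 8 Kcn genes whose difference varied between subfields, with rings on called differences. Kcnab1, Kcnh7 and Kcnip4 were called below 0 in CA1 and in no other subfield, and Kcna4 was called in DG. Kcnj8 was called above 0 in CA1 and lay below 0 in DG without a call.

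Setting tTA against DN mice compares animals without the tau transgene. In CA1, 6 of the 60 genes were higher and 8 lower in tTA mice (23.3% against 16.2% of all probe sets), in CA3 1 was higher and 3 lower (6.67% against 9.09%), and in DG 4 were higher and 9 lower (21.7% against 16.7%). Kcnip4 and Kcnj10 were the genes called in all 3 subfields. Kcnip4 averaged 7.76 ± 0.29 in tTA and 8.54 ± 0.15 in DN mice in CA1 (−0.78, adjusted p = 0.00251), 6.99 ± 0.44 in tTA and 7.90 ± 0.10 in DN mice in CA3 (−0.91, adjusted p = 0.00389), and 7.04 ± 0.40 in tTA and 8.50 ± 0.20 in DN mice in DG (−1.46, adjusted p = 2.96e-05). The groups did not overlap in any subfield, and the second probe set was called lower in all 3.

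Kcnj10 averaged 8.02 ± 0.29 in tTA and 7.10 ± 0.19 in DN mice in CA1 (0.92, adjusted p = 0.00368), 7.76 ± 0.35 in tTA and 6.90 ± 0.43 in DN mice in CA3 (0.86, adjusted p = 0.014), and 8.36 ± 0.29 in tTA and 7.26 ± 0.36 in DN mice in DG (1.11, adjusted p = 0.00023). Astrocyte markers rose in the same arrays, 6, 8 and 11 of 12 in CA1, CA3 and DG. In DG their mean level was 8.51 to 9.01 in tTA and 7.33 to 8.06 in DN mice, and their part in the Kcnj10 difference was not tested.

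The 9 genes that were lower in DG of tTA mice were 4 Kv genes, 3 G protein-gated Kir subunits, an SK channel and a KChIP. Kcna4 stood at 4.0, 3.68, 4.89, 4.67 and 4.11 in tTA mice, against 4.94 to 6.03 (median 5.43) in DN mice (−1.25, SE 0.23, adjusted p = 0.0014). Kcnj3 stood at 6.96, 6.37, 6.37, 6.82 and 6.75 in tTA mice, against 7.18 to 8.0 (median 7.59) in DN mice (−0.92, SE 0.16, adjusted p = 0.00077). Kcnc4, the DG gene of DN mice, stood at 9.16, 9.31, 9.01, 9.25 and 9.49 in tTA mice, against 9.61 to 10.04 (median 9.80) in DN mice (−0.58, adjusted p = 0.0103). In none of these 3 genes did the groups overlap. The GIRK genes Kcnj6 (−0.83, adjusted p = 0.0335) and Kcnj9 (−0.75, adjusted p = 0.0207) were lower, though Kcnj5 was not called (−0.03, adjusted p = 0.821). Lower too were Kcna1 (−0.73, adjusted p = 0.0249), Kcnh1 (−0.66, adjusted p = 0.00546) and Kcnn3 (−0.31, adjusted p = 0.0413).

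Of the genes that were higher in DG of tTA mice, Kcnk2, Kcnn2 and Kcnq5 were ones that DN mice had more of in CA1 than in DG. Kcnk2 stood at 8.56, 7.83, 8.27, 8.50 and 8.04 in tTA mice, against 7.04 to 7.66 (median 7.30) in DN mice (0.92, SE 0.14, adjusted p = 0.000272). Kcnn2 ran over 7.15 to 7.74 in tTA and 6.46 to 7.0 in DN mice (0.70, adjusted p = 0.00287), and Kcnq5 over 5.07 to 5.52 in tTA and 4.40 to 4.76 in DN mice (0.66, adjusted p = 0.0123). None of the 3 overlapped between groups. Dentate granule markers moved in the same arrays, 5 of 9 lower and 1 higher, with a mean level of 6.94 to 7.45 in tTA and 7.66 to 8.07 in DN mice. Of the 4 CA1 pyramidal markers 1 was lower and 0 were higher, and microglial (9 of 16 higher, 5.80 to 6.35 in tTA against 4.67 to 5.18 in DN mice) and interneuron markers (2 of 17 higher, 6.61 to 6.78 in tTA against 6.18 to 6.43 in DN mice) moved too. The part of these lists in the differences was not tested.

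In CA1, Kcnh7 was lower in tTA mice (−1.35, SE 0.28, adjusted p = 0.0043), with 5.47, 6.45, 5.72, 6.67 and 6.17 in tTA and 7.36 to 7.56 in DN mice and no overlap. Kcnn2 stood at 7.51, 7.39, 7.23, 7.48 and 7.28 in tTA mice, against 7.63 to 8.10 in DN mice (−0.55, adjusted p = 0.00159). Kcnj6 (−0.91, adjusted p = 0.0385), Kcnj9 (−0.75, adjusted p = 0.0147), Kcna1 (−0.81, adjusted p = 0.0351), Kcna2 (−0.87, adjusted p = 0.0391) and Kcnn3 (−0.78, adjusted p = 0.0106) were lower too. A dimmer Kcnj9 probe set was called higher (0.33, adjusted p = 0.0498), at means of 3.53 in tTA and 3.21 in DN mice. Another was not called (0.16, adjusted p = 0.13). Kcnmb4 was higher, at 7.71, 7.69, 7.51, 7.52 and 7.82 in tTA mice, against 6.34 to 7.15 in DN mice (0.78, adjusted p = 0.0192). The dim genes Kcnj14 (Kir2.4; 0.59, adjusted p = 0.0461), Kcna5 (0.43, adjusted p = 0.0259), Kcna6 (0.39, adjusted p = 0.0468) and Kcne2 (0.29, adjusted p = 0.0432) were also higher. Marker lists moved in the CA1 arrays. Their mean levels in tTA and DN mice were 5.29 to 5.74 and 4.88 to 5.23 for microglia. They were 7.59 to 8.20 and 7.26 to 7.68 for astrocytes, and 6.27 to 7.16 and 5.74 to 6.32 for oligodendrocytes. For CA1 pyramidal markers they were 7.42 to 8.09 and 7.99 to 8.18. The part of these lists in the CA1 differences was not tested. In CA3 the BK channel gene Kcnma1 (−0.70, adjusted p = 0.0246) and Kcnq5 (−0.56, adjusted p = 0.0256) were lower, with no overlap.

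The Actb 3′ minus 5′ level was −0.70 ± 0.16, −0.64 ± 0.18 and −0.61 ± 0.12 in tTA mice in CA1, CA3 and DG, and −0.37 ± 0.23, −0.45 ± 0.18 and −0.30 ± 0.15 in DN mice. With it as a covariate 3 genes were called in CA1 (Kcnip4, Kcnj10 and Kcnn3), 2 in CA3 (Kcnip4 and Kcnj10) and 6 in DG (Kcna4, Kcnc4, Kcnip4, Kcnj10, Kcnj3 and Kcnk2), and its part in the other differences was not tested. The share of all probe sets called was not counted with the covariate or with mice left out. In CA1, 7 to 9 genes were called without tTA mouse4592 or without DN mouse4806, mouse4825, mouse4866 or mouse4886, and in CA3, 2 without DN mouse4797, mouse4825 or mouse4866. Calls lost in CA1 were those of Kcna1 (without any 1 of mouse4580, mouse4592, mouse4637, mouse4806, mouse4825, mouse4883 and mouse4886), Kcna2 (mouse4570, mouse4592, mouse4626, mouse4637, mouse4806, mouse4825, mouse4866 and mouse4886), Kcna5 (mouse4592, mouse4825 and mouse4866), Kcna6 (mouse4580, mouse4592, mouse4637, mouse4797, mouse4806, mouse4825 and mouse4866), Kcne2 (mouse4570, mouse4592, mouse4626, mouse4806, mouse4825, mouse4866, mouse4883 and mouse4886), Kcnj14 (mouse4570, mouse4580, mouse4592, mouse4626, mouse4797, mouse4806, mouse4866, mouse4883 and mouse4886) and Kcnj6 (mouse4580, mouse4592, mouse4626, mouse4637, mouse4806, mouse4825, mouse4866, mouse4883 and mouse4886), with adjusted p up to 0.111. Those lost in CA3 were Kcnma1 (mouse4592, mouse4797, mouse4825 and mouse4866) and Kcnq5 (mouse4570, mouse4797, mouse4825, mouse4866 and mouse4883), with adjusted p up to 0.0742. Those lost in DG were Kcna1 (mouse4580, mouse4592, mouse4797 and mouse4825), Kcnj6 (mouse4580, mouse4592, mouse4637, mouse4797, mouse4825, mouse4883 and mouse4886), Kcnj9 (mouse4592 and mouse4797) and Kcnn3 (mouse4570, mouse4580, mouse4626, mouse4637, mouse4797, mouse4825 and mouse4883), with adjusted p up to 0.106.

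**Figure D4:**
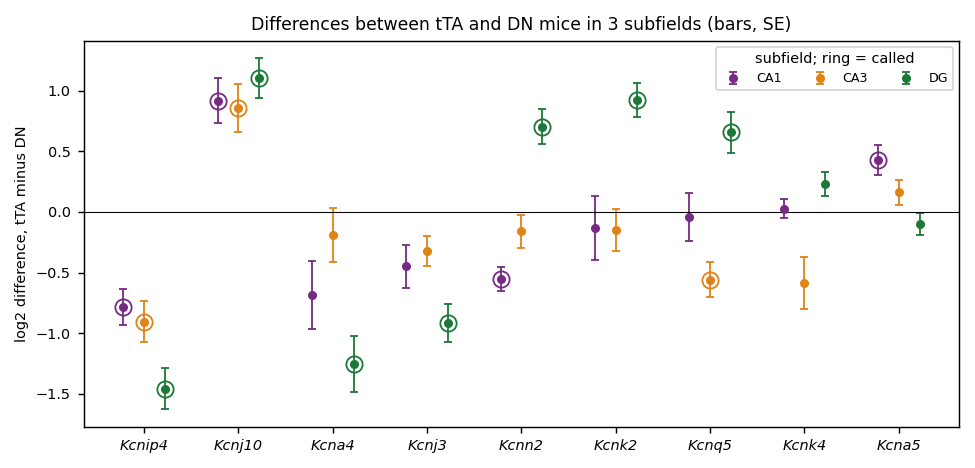
Log2 difference between tTA and DN mice (y axis, bars SE) in CA1, CA3 and DG for 9 Kcn genes, with rings on called differences. Kcnip4 lay below 0 and Kcnj10 above 0 in all 3 subfields, whereas Kcnn2 was called below 0 in CA1 and above 0 in DG.

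The difference between tTA and DN mice varied between DG and CA1 for 3 of the 60 genes (5% against 1.65% of all probe sets) and between DG and CA3 for 4 (6.67% against 1.24%). Kcnn2 led the test against CA1 (1.26, SE 0.17, adjusted p = 2.16e-06), being higher in DG and lower in CA1 of tTA mice, and it also differed against CA3 (0.86, adjusted p = 0.00231). Kcnq5 differed between DG and CA3 (1.22, SE 0.25, adjusted p = 0.0023), being higher in DG and lower in CA3. Kcnk2 differed against CA1 (1.06, adjusted p = 0.036) and CA3 (1.08, adjusted p = 0.044), Kcnk4 against CA3 (0.82, adjusted p = 0.0201) and Kcna5 against CA1 (−0.53, adjusted p = 0.0326). Kcnn2 and Kcnq5 kept these calls without each mouse in turn. Kcnk2 lost its call against CA1 without any 1 of mouse4592, mouse4626, mouse4637, mouse4797, mouse4806, mouse4825, mouse4866, mouse4883 and mouse4886, and against CA3 without mouse4570, mouse4592, mouse4626, mouse4797, mouse4806, mouse4825, mouse4866, mouse4883 and mouse4886 (adjusted p up to 0.172). Kcna5 lost its call without mouse4592, mouse4626, mouse4797, mouse4825, mouse4866 and mouse4883 (up to 0.182) and Kcnk4 without mouse4570, mouse4637, mouse4797, mouse4825, mouse4866 and mouse4883 (up to 0.12). Against CA1, 1 gene was called without tTA mouse4592 or DN mouse4797, mouse4825, mouse4866 or mouse4883 and 5 without tTA mouse4580, and against CA3, 2 without tTA mouse4570 or DN mouse4797, mouse4825, mouse4866 or mouse4883.

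The rTg4510 mice differ from DN mice by both transgenes, and this comparison uses the same arrays as the others. In CA1, 9 of the 60 genes were higher and 10 lower in rTg4510 mice (31.7% against 23.4% of all probe sets), among them 10 of the 15 auxiliary genes (6 higher, 4 lower), 5 of the 13 Kir genes and 0 of the 8 K2P genes. All K2P genes but Kcnk1 and Kcnk2 were dim. Kcnh7 (−2.57, SE 0.28, adjusted p = 1.09e-05), Kcnab1 (−1.99, SE 0.27, adjusted p = 5.95e-05) and Kcnip4 (−1.48, SE 0.15, adjusted p = 5.24e-06) fell furthest, with no overlap. Of the 4 CA1 pyramidal markers 3 were lower and 1 higher in the same arrays, with a mean level of 6.24 to 7.29 in rTg4510 and 7.99 to 8.18 in DN mice. The GIRK genes Kcnj6 (−1.21, adjusted p = 0.00496), Kcnj3 (−0.95, adjusted p = 0.000847) and Kcnj9 (−0.91, adjusted p = 0.00221) were lower, whereas Kcnj5 was not called (0.16, adjusted p = 0.0898). A dimmer Kcnj9 probe set was called higher (0.20, adjusted p = 0.0419), at means of 3.45 in rTg4510 and 3.25 in DN mice. Another was not called (0.19, adjusted p = 0.225). Lower as well were Kcnip2 (−0.81, adjusted p = 0.0264), Kcnab2 (−0.77, adjusted p = 0.00143), Kcnh1 (−0.69, adjusted p = 0.0284) and Kcnma1 (−0.61, adjusted p = 0.0237). Kcnj10 (1.59, SE 0.19, adjusted p = 1.94e-05), Kcnip1 (1.22, adjusted p = 0.00179), Kcnmb2 (0.90, adjusted p = 0.00285), Kcnj8 (0.83, adjusted p = 0.0117) and Kcnmb4 (0.65, adjusted p = 0.0319) were higher. Without single mice the calls of Kcnh1 (mouse4535, mouse4666, mouse4806 and mouse4825), Kcnip2 (mouse4653, mouse4666, mouse4825, mouse4883 and mouse4886), Kcnma1 (mouse4535, mouse4549, mouse4825 and mouse4886) and Kcnmb4 (mouse4549, mouse4600, mouse4653, mouse4666, mouse4797 and mouse4883) were lost, with adjusted p up to 0.0842.

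Kcnip1 (KChIP1), which in the hippocampus is known from interneurons, ran over 7.09 to 8.43 in rTg4510 mice, against 6.01 to 6.99 in DN mice. Interneuron markers moved in these arrays, 10 of 17 higher and 0 lower, with a mean level of 6.84 to 7.65 in rTg4510 and 6.29 to 6.74 in DN mice. Astrocyte markers (12 of 12 higher, 8.65 to 9.33 against 7.26 to 7.68 in DN mice) rose beside Kcnj10, as did microglial (15 of 16, 6.26 to 7.14 against 4.88 to 5.23 in DN mice) and oligodendrocyte markers (10 of 11, 6.95 to 7.71 against 5.74 to 6.32 in DN mice), and the part of these lists was not tested. In CA3 Kcnj10 was the gene called (0.87, adjusted p = 0.0202; 1.67% against 3.12% of all probe sets). Its call was lost without DN mouse4797, mouse4866 and mouse4883 (adjusted p up to 0.0679), which left 0 genes. In the same arrays 7 of 12 astrocyte markers were higher (8.15 to 8.46 in rTg4510 against 7.42 to 7.72 in DN mice). Kcnip4 in CA3 missed the threshold (−0.47, adjusted p = 0.128), with 7.23 to 7.76 in rTg4510 mice against 7.8 to 8.0 in DN mice. It passed with array weights (adjusted p = 0.02) and in a fit without the tTA arrays (adjusted p = 0.0277).

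In DG, 4 genes were higher and 3 lower in rTg4510 than in DN mice (11.7% against 8.86% of all probe sets). Kcnk2 stood at 8.46 to 8.96 (median 8.60) in rTg4510 mice, against 7.04 to 7.66 (median 7.30) in DN mice (1.33, SE 0.13, adjusted p = 6.06e-06), with no overlap. In rTg4510 mice it was lower in CA1 than in DG (−0.67, adjusted p = 0.019), the reverse of DN mice, a call lost without rTg4510 mouse4535 and mouse4653 (adjusted p up to 0.277). Kcnc4 stood at 8.51 to 9.45 (median 8.88) in rTg4510 mice, against 9.61 to 10.04 (median 9.80) in DN mice (−0.93, SE 0.14, adjusted p = 0.000357), also apart. Its dimmer probe set was not called (−0.08, adjusted p = 0.612). Against tTA mice neither DG difference passed the test (Kcnk2 0.40, adjusted p = 0.163, and Kcnc4 −0.35, adjusted p = 0.259). Kcnip4 (−1.08, adjusted p = 0.000417) and Kcnj9 (−0.67, adjusted p = 0.0474) were lower, and Kcnj10 (1.06, adjusted p = 0.000304), Kcnip1 (0.55, adjusted p = 0.0406) and Kcnn2 (0.55, adjusted p = 0.0176) higher. A dimmer probe set of Kcnip1 was not called (0.04, adjusted p = 0.944). Nor were the dimmer ones of Kcnj9 (−0.15, adjusted p = 0.448, and −0.01, adjusted p = 0.956). Of the astrocyte markers 10 of 12 were higher in these arrays (8.35 to 8.94 in rTg4510 against 7.33 to 8.06 in DN mice). Mean levels of microglial markers in rTg4510 and DN mice were 5.94 to 6.30 and 4.67 to 5.18. For interneuron markers they were 6.52 to 7.28 and 6.18 to 6.43, and for dentate granule markers 7.36 to 7.70 and 7.66 to 8.07. The part of these lists in the DG differences was not tested. The calls of Kcnip1 and Kcnj9 were lost without 10 of 12 mice (all but mouse4549 and mouse4825) and 9 of 12 (all but mouse4621, mouse4806 and mouse4866), with adjusted p up to 0.114.

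The order of CA3 and DG in DN mice was also seen in transgenic mice for Kcnc4 and Kcnq5, among other genes. Kcnc4 was lower in CA3 than in DG of rTg4510 (−2.90, adjusted p = 8.71e-14) and tTA mice (−3.29, adjusted p = 1.51e-13). Kcnq5 was higher in CA3 than in DG of rTg4510 (1.75, adjusted p = 1.18e-11) and tTA mice (1.42, adjusted p = 4.12e-08).

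**Figure D5:**
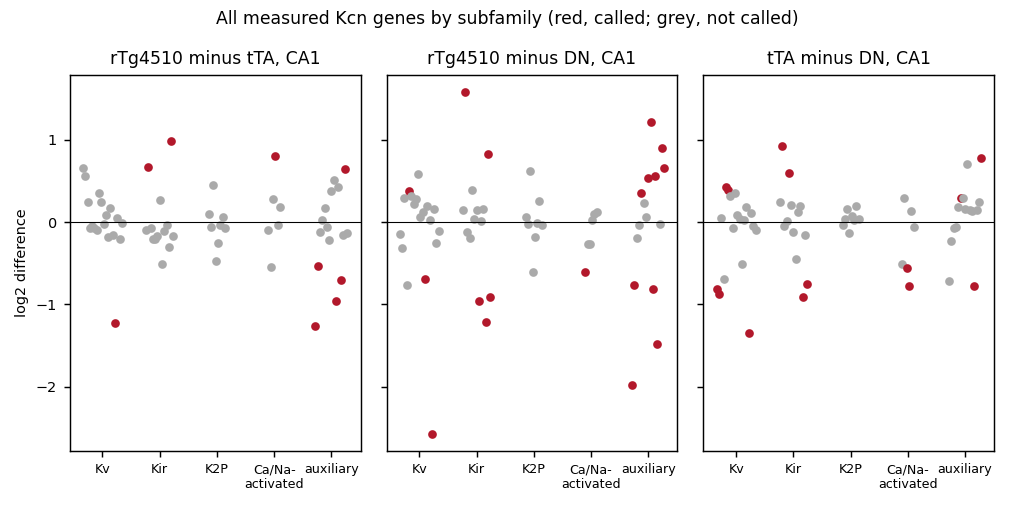
Log2 difference (y axis) of each of the 60 Kcn genes in CA1, by subfamily (x axis), for rTg4510 minus tTA, rTg4510 minus DN and tTA minus DN mice, 1 point per gene, with called genes in red. Called genes lay on both sides of 0 in each panel, and 0 of the 8 K2P genes were called in CA1. All of these but Kcnk1 and Kcnk2 were dim.

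Of genes outside the Kcn family whose proteins bind potassium channels or move potassium, 21 listed genes were measured. In CA1, 3 were higher and 2 lower in rTg4510 than in tTA mice, 5 of 21 called against 10.6% of all probe sets. Slc12a2, the sodium-potassium-chloride importer NKCC1 (0.88, adjusted p = 0.00229), and the sodium pump subunits Atp1b3 (0.80, adjusted p = 0.000733) and Atp1b2 (0.58, adjusted p = 0.0234) were higher, and Slc12a5, the neuronal potassium-chloride exporter KCC2 (−0.33, adjusted p = 0.0443), and Dlg3, a synaptic scaffold protein (−0.51, adjusted p = 0.0103), were lower. In CA3 1 was higher, Cntnap2, which clusters Kv1 channels along axons (0.77, adjusted p = 0.0223), and in DG 0 were called. Between tTA and DN mice 0, 0 and 2 of the 21 were higher and 9, 4 and 7 lower in CA1, CA3 and DG, where 16.2%, 9.09% and 16.7% of all probe sets were called. Cntnap2 was lower in CA1 (−1.29, adjusted p = 3.67e-05) and CA3 (−1.30, adjusted p = 0.000214). Adam22, another member of Kv1 complexes, was lower in all 3 (−1.10, adjusted p = 0.000302, −0.61, adjusted p = 0.0204, and −0.67, adjusted p = 0.00569). Dpp6, an auxiliary protein of Kv4 channels, was lower in CA1 (−0.70, adjusted p = 0.00431) and DG (−0.53, adjusted p = 0.0374).

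Of the 60 genes, 20 were called in none of the 16 comparisons, and 19 of those were dim in all groups. Kcnn1 (SK1), the exception, had group means of 5.08 to 5.92. Kcnh3, a relative of Kcnh1 found in forebrain neurons, and Kcnk3 (TASK-1) had group means of 4.43 to 4.71 and 4.08 to 4.60.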

How the data were processed

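The authors summarised HT-MG-430A arrays with RMA and deposited 1 log2 value per probe set and array. Anti-log values are named in their methods, yet those deposited run from 1.944 to 13.826 with array medians of 4.947 to 5.062, and were taken as log2. No source used here gives the version of RMA, and array number, not read depth, limits the precision. After 90 control probe sets were left out, 22626 were tested in R 4.3.3 with limma 3.58.1 (lmFit and eBayes), with Benjamini-Hochberg adjustment over all of them and no fold threshold. Genotypes were compared within each subfield in a fit of its 3 genotypes, each mouse entering once. Subfields, and differences between subfields, were tested in a fit of all 9 groups with the mouse, which the sample titles number, as a random block (correlation 0.117). Deviations from group means correlated at a median of 0.119 over 47 pairs of arrays from 1 mouse. Between arrays of different mice in different groups the median was −0.00146. In the fits within a subfield the p-values measure the spread between mice. In the fit of 9 groups they measure the spread between arrays, with arrays of 1 mouse taken as correlated. Comparisons that share a genotype share its arrays.

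Gene symbols came from the platform annotation and chromosomes and promoters from RefSeq. Families came from a prepared gene list. Members, lists and tests were chosen with earlier results of these data known. The text names the called genes of each genotype comparison (at most 15), the 10 with the largest difference in each subfield comparison of DN mice, those called between subfield responses, a fixed list of hippocampal channels, and called partners. The fits were tested on simulated data. Alternatives were other probe sets of the gene, renewed quantile normalization, a filter on low levels, trended robust variance, array weights, 2 genotypes in the fit, the methods' least significant difference test, Actb 3′ to 5′ ratio as a covariate, other treatments of the mouse block, and leaving out each mouse.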

Additional observations from a re-analysis of the deposited data

Results flagged for a closer look

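Over 207 sets of arrays (23 genes in 9 groups), 13 had an array apart from its group by a Dixon test at 95%, and chance flags about 1 in 20. In DG these were Kcna2 in rTg4510 mouse4549 (4.52, nearest 5.38) and tTA mouse4592 (3.75, nearest 5.06), Kcnh7 in tTA mouse4592 (4.93, nearest 3.86), and Kcnj6 and Kcnn3 in rTg4510 mouse4600 (8.21, nearest 7.06, and 6.08, nearest 5.76). In CA3 they were Kcnab1 and Kcnn2 in rTg4510 mouse4621 (6.12, nearest 6.99, and 6.48, nearest 6.95), Kcnj9 and Kcnq5 in tTA mouse4570 (5.90, nearest 7.43, and 6.32, nearest 6.68), Kcnmb4 in tTA mouse4637 (8.22, nearest 8.41), and Kcna4 and Kcnj8 in DN mouse4886 (4.01, nearest 4.44, and 4.62, nearest 5.32). In CA1 it was Kcnj9 in tTA mouse4592 (7.30, nearest 8.24).

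The difference between rTg4510 and tTA mice varied between subfields by an interaction test. As the CA1 difference minus that of CA3 it was −1.42 for Kcnab1, −1.39 for Kcnh7, −1.11 for Kcnip4 and −0.90 for Kcnj3. As the CA1 difference minus that of DG it was −1.72 for Kcnab1, −1.11 for Kcna4, −1.06 for Kcnip4, −1.06 for Kcnh7, −0.98 for Kcnj3, 1.54 for Kcnj8, 0.80 for Kcnn3 and 0.76 for Kcnmb2.

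The difference between tTA and DN mice varied in the same way. As the DG difference minus that of CA1 it was 1.26 for Kcnn2, 1.06 for Kcnk2 and −0.53 for Kcna5, and minus that of CA3 it was 1.22 for Kcnq5, 1.08 for Kcnk2, 0.86 for Kcnn2 and 0.82 for Kcnk4.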

How the results depend on the processing

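Of 150 called pairs of gene and comparison, 98 kept their call in every alternative other than leaving out a mouse, 102 without each mouse in turn, and 88 in all, and 0 changed sign. Counts of called Kcn genes that moved by more than 1.5 times are given by setting, and the cause was not tested. The share of all probe sets called was not counted in the alternatives, so a moved count cannot be read as particular to Kcn genes. With the Actb ratio as a covariate, 1 gene was called between rTg4510 and tTA mice in CA1 and 0 in DG (9 and 1 otherwise), 3, 2 and 6 between tTA and DN mice in CA1, CA3 and DG (14, 4 and 13), and 4 between rTg4510 and DN mice in DG (7). With only the arrays of both genotypes in the fit, 1 and 0 were called between rTg4510 and tTA mice in CA1 and DG, and in CA3 2 between rTg4510 and DN mice (1) and 7 between tTA and DN mice. The least significant difference test called 5 and 0 between rTg4510 and tTA mice in CA1 and DG. Array weights gave 3 and 11 between rTg4510 and DN mice in CA3 and DG, 8 between tTA and DN mice in CA3, and 0 between rTg4510 and tTA mice in DG. Renewed quantile normalization gave 8 between tTA and DN mice in CA1 and 2 between rTg4510 and tTA mice in DG, where any probe set of the gene also gave 2, and probe sets above the median level gave 2 between rTg4510 and DN mice in CA3.

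With no replicate block, that is without the mouse, 4 genes in place of 8 were called between the CA1 and DG differences of rTg4510 and tTA mice, and 1 in place of 3 between the DG and CA1 differences of tTA and DN mice. With the mouse as a fixed block these last were 1, and 2 in place of 4 were called between the DG and CA3 differences. Other counts moved by less with either treatment of the mouse.

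Without 1 mouse at a time, counts between rTg4510 and tTA mice were 5 to 10 in CA1, 0 to 0 in CA3 and 0 to 2 in DG, between rTg4510 and DN mice 13 to 23, 0 to 2 and 5 to 8, and between tTA and DN mice 7 to 13, 2 to 5 and 9 to 16. In DN mice they were 12 to 14 for CA1 and CA3, 18 to 19 for CA1 and DG and 17 to 20 for CA3 and DG. Between subfield differences they were 3 to 7 (CA1 and CA3) and 4 to 8 (CA1 and DG) for rTg4510 and tTA mice, and 1 to 5 (DG and CA1) and 2 to 4 (DG and CA3) for tTA and DN mice. Levels far below the dim threshold lie near the arrays' background, where differences may be understated. This can concern the 32 genes that were dim in all groups, and others where they were dim (Kcnh7 in CA3 and DG). The background level itself was not measured.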
